A study of Mus musculus with 6 samples.

Results

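The 10 genes described here are the cyclins and cyclin-dependent kinases that drive the mammalian cell cycle. They are the D-type cyclins Ccnd1, Ccnd2 and Ccnd3, the E-type cyclins Ccne1 and Ccne2 with their kinase Cdk2, and the A-type and B-type cyclins Ccna2, Ccnb1 and Ccnb2 with their kinase Cdk1. They were chosen by name from a table of 21774 mouse genes, and for each gene the transcript with the highest mean over the 6 libraries was kept. All 10 were measured, and all 10 passed the filter on low values that left 15759 genes for testing.

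RNA was sequenced from 6 libraries of wild-type mouse lung cells taken from a lung cell suspension with magnetic beads against B220, a surface antigen of mouse B cells. For the severe asthma group (3 libraries), mice were sensitised through the trachea with 10 μg of LPS (lipopolysaccharide, a bacterial cell wall component) plus 25 μg of HDM (house dust mite, an airway allergen) dissolved in 35 μl PBS, once a day from day 0 to day 2. They were then challenged daily with 25 μg of HDM and no LPS between days 7 and 14, 8 doses in all. In the control group (3 libraries), mice were given only PBS by the same route. The design text asks how lung B cells of asthmatic mice differ from those of control mice, in relation to lymphoid tissue that forms in the inflamed lung. Age, sex and strain are not given in the sources used here, nor whether each library came from its own animal, so the tests below measure the spread between these libraries, which may in part be technical.

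Each library held between 16498219 and 18054903 reads over mRNA genes. The deposited values are reads adjusted to a library size common to all 6 libraries, and they are called adjusted reads below. The whole-table fit with limma called 3262 genes higher and 2263 genes lower in severe asthma, and scaling by total reads alone turned that split to 1920 higher and 3111 lower. Over all genes tested the median log2 difference was 0.06, and it was -0.08 with total reads. The B cell label was checked against 11 B cell markers, all of which were abundant in every library: their summed level ran from 154389 to 217038 adjusted reads in the controls and from 212316 to 231807 in severe asthma. The libraries also held RNA of other cell types in unequal amounts. Summed markers of macrophages and monocytes ran from 13618 to 32376 adjusted reads in the controls and from 109565 to 220935 in severe asthma, and summed endothelial markers ran from 19887 to 56496 in the controls and from 5755 to 9501 in severe asthma.

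Cyclins are the regulatory subunits of cyclin-dependent kinases, which are inactive without them. D-type cyclins pair with Cdk4 and Cdk6 early in G1 and respond to growth signals, E-type cyclins pair with Cdk2 at the entry into S phase, cyclin A2 acts from S phase into G2, and the B-type cyclins with Cdk1 bring the cell into mitosis. In B cells, cyclin D3 and cyclin D2 are the D-type cyclins best known for carrying antigen-driven division, while cyclin D1 is known mainly from other tissues and from lymphomas in which it is switched on.

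The mitotic members are known for promoters in which CCAAT boxes (bound by the factor NF-Y) sit beside a short element called the cell cycle homology region, through which the DREAM and MYB-FOXM1 complexes act. RefSeq's promoter table (build GRCm38.p6) held an entry for 6 of the 10 genes. The windows below run from 170 bases before the start site through its first 30 bases, and they are shown for the 3 mitotic genes with an entry, whose RNA moved together, and for Cdk2, whose RNA was not called changed. Capitals mark CCAAT (or its reverse complement ATTGG) and the letters TTTGAA or TTTAAA (either strand) of the cell cycle homology region. All 4 genes lie on the minus strand, and the sequences read 5′ to 3′ along the gene.
Ccnb1 (chr13:100786457-100786656, minus strand): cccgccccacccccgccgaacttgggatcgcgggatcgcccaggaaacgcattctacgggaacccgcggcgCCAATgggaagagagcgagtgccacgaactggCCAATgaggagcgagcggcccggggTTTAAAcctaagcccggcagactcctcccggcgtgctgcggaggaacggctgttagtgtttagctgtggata
Ccnb2 (chr9:70421525-70421724, minus strand): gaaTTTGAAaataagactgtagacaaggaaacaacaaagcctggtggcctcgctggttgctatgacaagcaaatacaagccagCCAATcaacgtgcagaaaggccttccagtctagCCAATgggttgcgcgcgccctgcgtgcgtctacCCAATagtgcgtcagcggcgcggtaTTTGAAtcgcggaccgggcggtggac
Cdk1 (chr10:69352883-69353082, minus strand): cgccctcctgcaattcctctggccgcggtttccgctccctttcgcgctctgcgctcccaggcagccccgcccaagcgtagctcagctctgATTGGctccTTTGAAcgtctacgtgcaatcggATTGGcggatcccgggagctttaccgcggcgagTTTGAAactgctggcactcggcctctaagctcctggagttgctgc
Cdk2 (chr10:128705022-128705221, minus strand): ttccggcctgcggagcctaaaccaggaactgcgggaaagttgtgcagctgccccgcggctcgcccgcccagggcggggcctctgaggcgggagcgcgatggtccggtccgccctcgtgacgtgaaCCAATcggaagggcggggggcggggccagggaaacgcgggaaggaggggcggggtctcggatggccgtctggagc

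The Ccnb2 window held 3 CCAAT boxes, with first bases at -87, -54 and -21 from the start site, and 2 matches to the homology letters at -167 and 5. The Ccnb1 window held CCAAT boxes at -99 and -67 and 1 homology match at -42. The Cdk1 window held 2 CCAAT boxes on the reverse strand, at -80 and -48, and homology matches at -71 and -15. The Cdk2 window held 1 CCAAT box at -45 and no homology letters. Of 32851 promoters of the same length, 29% held a CCAAT box, 18.6% held the homology letters and 5.49% held both. For E2F, 4 words were searched on both strands: TTCCCGC, held by 3.35% of promoters, TTGGCGC, held by 1.78%, TTCGCGC, held by 1.16%, and TTGCCGC, held by 1.22%, with 7.07% holding any of them. The Cdk2 window held the first of these at -140 and at -10 on the reverse strand. The Cdk1 window held TTCGCGC at -130, the Ccnb1 window held TTGGCGC on the reverse strand at -102, overlapping the CCAAT box at -99, and the Ccnb2 window held 0. Among the windows not shown, that of Ccne1 held 1 homology match and no CCAAT box, and the 2 Ccnd3 windows held 0 and 1 CCAAT box and no match to either other set. A match describes the letters of the window and is not a site of binding.

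The set moved mostly upward, and the median change was larger for each later phase. In severe asthma 8 of the 10 genes rose, Ccnd1 fell and Cdk2 did not pass the test (limma-trend with Benjamini-Hochberg adjustment over 15759 genes, adjusted p under 0.05). Of all genes tested, 35.1% were called in either direction, 20.7% higher and 14.4% lower. The groups did not overlap for 9 of the 10 genes, 8 with severe asthma higher and 1 with it lower, against 53.3% of all genes tested (31.6% higher and 21.6% lower). By phase, the median log2 fold change was 0.70 for the 3 D-type cyclins, 1.02 for the E-type cyclins with Cdk2, and 3.25 for Ccna2, Ccnb1, Ccnb2 and Cdk1. Single genes did not all follow that order: Cdk2 (0.23) lay below Ccnd2 (0.70) and Ccnd3 (0.74), and Ccnd1 fell (-1.30). In bulk libraries such as these, more or fewer cells of a type and more or less RNA per cell cannot be told apart.

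**Figure D1:**
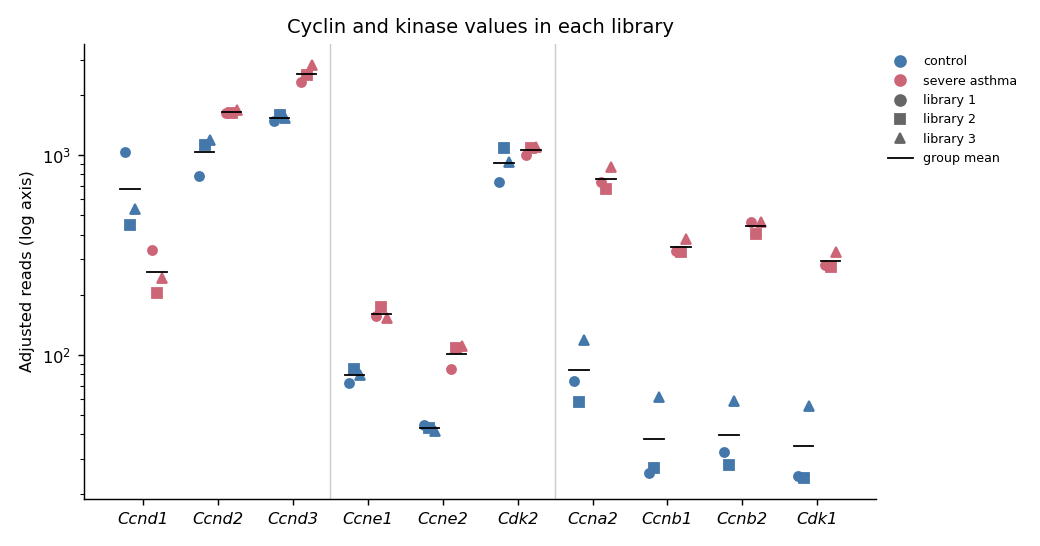
Adjusted reads of each gene in each of the 6 libraries on a log axis, with controls in blue, severe asthma in red, 1 symbol per library number and the group mean as a bar; grey lines separate the phases. The 3 severe asthma libraries lie above all controls for Ccna2, Ccnb1, Ccnb2, Cdk1, Ccne1, Ccne2, Ccnd2 and Ccnd3, and below all controls for Ccnd1, while the groups overlap for Cdk2.

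Ccna2, Ccnb1, Ccnb2 and Cdk1 showed the widest differences, each between 8.9-fold and 11.5-fold higher in severe asthma. Ccnb2 (chromosome 9, 70407689 to 70421554), a B-type cyclin that localises mainly to the Golgi, had 32.4, 28.0 and 58.2 adjusted reads in control libraries 1, 2 and 3, and 460, 403 and 464 in severe asthma libraries 1, 2 and 3. Every severe asthma library stood at least 6.92 times above the highest control. The group means were 39.6 ± 16.3 and 442 ± 34.1 adjusted reads (SD, n = 3 each), a log2 fold change of 3.52 (SE 0.272, 95% interval 2.89 to 4.15, limma adjusted p = 0.000353).

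Ccnb1 (chromosome 13, 100778739 to 100786486) encodes the B-type cyclin that enters the nucleus with Cdk1 as mitosis begins. It had 25.5, 27.0 and 61.1 adjusted reads in the controls and 332, 326 and 382 in severe asthma. The groups were far apart, although control 3 held 2.33 times the mean of the other controls. The log2 fold change was 3.27 (SE 0.329, 95% interval 2.51 to 4.03, limma adjusted p = 0.000799). A pseudogene copy, Ccnb1-ps, was listed at 0 in the 3 controls and at about 1 adjusted read in each severe asthma library, so its level was small beside that of Ccnb1 itself, although the counting could have split reads between the copies.

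Cdk1 (chromosome 10, 69335146 to 69352912), the kinase of both B-type cyclins and of cyclin A2, had 24.5, 24.0 and 55.5 adjusted reads in the controls and 281, 274 and 327 in severe asthma. That is a log2 fold change of 3.15 (SE 0.329, 95% interval 2.39 to 3.92, limma adjusted p = 0.000936). Only 118 of the genes tested, 0.749%, had a log2 fold change as high as that of Cdk1, the smallest of the 4. Ccna2 (chromosome 3, 36564865 to 36573038), the cyclin of S phase and G2, had 73.7, 58.0 and 119 adjusted reads in the controls and 738, 676 and 868 in severe asthma, which gave a log2 fold change of 3.23 (SE 0.255, 95% interval 2.63 to 3.83, limma adjusted p = 0.000522).

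These 4 genes shared the same pattern among libraries. Control 3 was the highest control for each, at 1.81 times the mean of controls 1 and 2 for Ccna2, 1.93 for Ccnb2, 2.29 for Cdk1 and 2.33 for Ccnb1. It was not set apart for Ccnd3, Ccne1, Ccne2 or Cdk2 (0.949 to 1.01). For Ccnd2 it was also the highest control (1.25), and for Ccnd1 it lay between the other controls (0.728). Within severe asthma, library 3 was the highest for all 4. Pairwise Pearson correlations of their log2 values over the 6 libraries ran from 0.995 to 0.9998, which mostly reflects the gap between the groups that they share. The summed level of 24 mitosis genes was likewise highest in library 3 of each group, at 3301, 3363 and 4504 adjusted reads in the controls and 17860, 16519 and 21059 in severe asthma. Summed macrophage markers were also highest in control 3 among the controls (26351, 13618 and 32376) but were highest in library 2 among the severe asthma libraries (109565, 220935 and 145988). Most reads in these macrophage sums were those of Lyz2, Chil3 and Apoe, with 92260, 72557 and 40244 adjusted reads in severe asthma library 2. Apoe was named after its values were seen. Summed germinal centre B cell markers were 2970, 2219 and 2055 in the controls and 6203, 6094 and 7434 in severe asthma. Most of the control reads of that list were those of Bcl6 (1193, 1404 and 1184), Efnb1 (1185, 414 and 440.5) and Fas (322, 139 and 152), whereas Mybl1 (32.4, 38.0 and 41.5), Mef2b (23.6, 35.0 and 47.1) and Gcsam (2.93, 3.0009 and 10.3) were highest in control 3. Of these, Efnb1, Fas, Mef2b and Gcsam were named after their values were seen. The part of these cell types in the rise of the 4 genes was not tested.

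**Figure D2:**
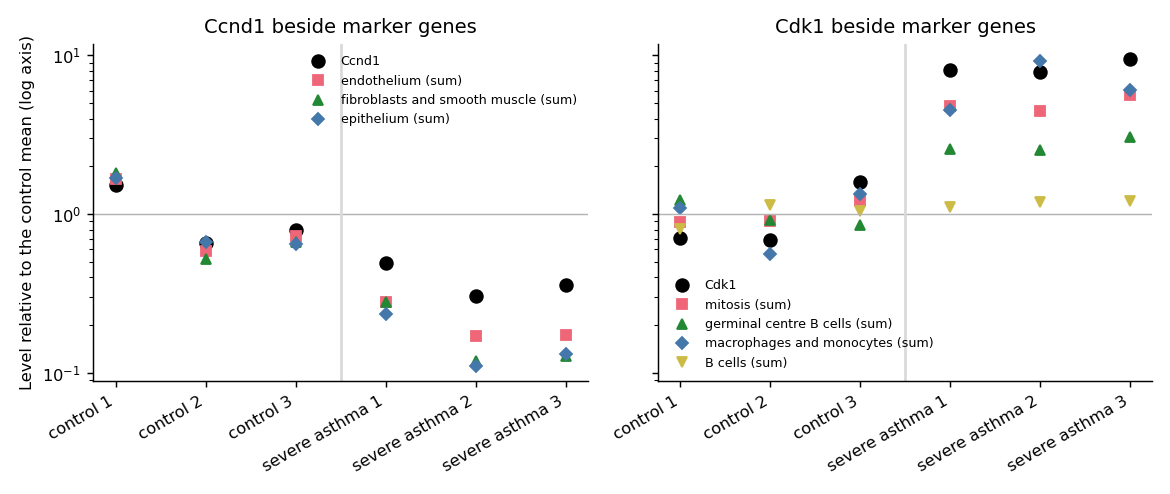
Left, Ccnd1 with the summed endothelial, fibroblast and smooth muscle, and epithelial markers; right, Cdk1 with the summed mitosis, germinal centre B cell, macrophage and monocyte, and B cell lists; each is drawn in each library relative to its control mean on a log axis. Ccnd1 and the 3 marker sums are each highest in library 1 of both groups, while Cdk1 peaks in severe asthma library 3 and the macrophage list in library 2.

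The E-type cyclins, which open S phase, rose 2.03-fold and 2.31-fold, less in size than the mitotic genes. Ccne1 (chromosome 7, 38097984 to 38107490) had 71.8, 85.02 and 79.1 adjusted reads in the controls and 157, 173 and 152 in severe asthma, a log2 fold change of 1.02 (SE 0.172, 95% interval 0.62 to 1.42, limma adjusted p = 0.00526). Ccne2 (chromosome 4, 11190433 to 11204779) had 44.2, 43.0 and 41.4 adjusted reads in the controls and 84.7, 108 and 110 in severe asthma, a log2 fold change of 1.21 (SE 0.224, 95% interval 0.69 to 1.72, limma adjusted p = 0.00725). Neither gene overlapped between the groups, and the controls of Ccne2 lay within 3 adjusted reads of each other. All 7 transcripts of Ccne2 in the table were called, with log2 fold changes from 1.14 to 1.46.

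Cdk2 (chromosome 10, 128697938 to 128705051), the kinase partner of both E-type cyclins, did not pass the test. It had 736, 1089 and 921 adjusted reads in the controls and 1002, 1082 and 1096 in severe asthma, so that control 2 lay inside the range of severe asthma. The group means were 916 ± 177 and 1060 ± 50.9 (SD, n = 3 each), and the log2 difference was 0.23 (SE 0.136, 95% interval -0.09 to 0.54, limma adjusted p = 0.224). None of its 6 transcripts was called (0.19 to 0.27). Without control 2 the difference was 0.36 and passed the threshold (adjusted p = 0.0439).

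The D-type cyclins, which link growth signals to the G1 kinases, split in direction: Ccnd3 and Ccnd2 rose and Ccnd1 fell. Ccnd3 (chromosome 17, 47505051 to 47599689) had 1476, 1585 and 1538 adjusted reads in the controls and 2331, 2519 and 2843 in severe asthma. Its groups were well apart, at 1533 ± 55.0 and 2564 ± 259 (SD, n = 3 each), with a log2 fold change of 0.74 (SE 0.0854, 95% interval 0.54 to 0.94, limma adjusted p = 0.0014). All 6 of its transcripts were called, at 0.63 to 0.74.

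Ccnd2 (chromosome 6, 127125162 to 127152188) had 783, 1125 and 1189 adjusted reads in the controls and 1633, 1630 and 1682 in severe asthma. The severe asthma libraries were close to each other and the controls were spread, with control 1 the lowest. The log2 fold change was 0.70 (SE 0.152, 95% interval 0.34 to 1.06, limma adjusted p = 0.0138). The call was lost without severe asthma library 2 (adjusted p = 0.0573) and without library 3 (adjusted p = 0.0583), at log2 fold changes of 0.71 and 0.68. It was also lost with all libraries and no filter on low values (limma adjusted p = 0.0775).

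Ccnd1 (chromosome 7, 144929931 to 144939831) was the only member that fell. It had 1037, 447 and 540.0 adjusted reads in the controls and 334, 205 and 242 in severe asthma. The groups did not overlap, and library 1 was the highest of each group. The means were 675 ± 317 and 260.4 ± 66.6 (SD, n = 3 each), with a log2 fold change of -1.30 (SE 0.354, 95% interval -2.17 to -0.43, limma adjusted p = 0.0359). The call was lost without control 3 (log2 fold change -1.41, adjusted p = 0.0655), without severe asthma library 2 (-1.15, adjusted p = 0.113) and without library 3 (-1.27, adjusted p = 0.11), as well as with limma-voom (adjusted p = 0.0712). It was also lost with no filter on low values.

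Markers of endothelium, of fibroblasts and smooth muscle, and of epithelium moved with Ccnd1. Over all genes tested, 14.4% fell and 20.7% rose, and the counts below stand beside these shares. Summed endothelial markers were 56496, 19887 and 24684 adjusted reads in the controls and 9501, 5755 and 5885 in severe asthma, and all 12 of the list fell. Summed fibroblast and smooth muscle markers were 21982, 6330 and 8083 in the controls and 3384, 1441 and 1562 in severe asthma, and 8 of 12 fell. Summed epithelial markers were 76368, 30545 and 29513 in the controls and 10719, 5061 and 5956 in severe asthma, and 11 of 12 fell. None of these markers was at 0 in any library. Library 1 was the highest of its group for all 3 sums, as it was for Ccnd1, although the epithelial genes Scgb1a1 (6757, 7926 and 8609 in the controls) and Bpifa1 (2752, 5392 and 3693, named after its values were seen) were lowest in control 1. Summed B cell markers, by contrast, were lowest in control 1 (154389, 217038 and 199653 in the controls). Of the 11 B cell markers, 2 rose, which is near the share of all genes, and 0 fell. The part of these cells in the fall of Ccnd1 was not tested.

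The balance among the D-type cyclins was read per kilobase of transcript, with lengths from GENCODE M21 (for Ccnd1 and Ccnd2, the length of the longest other transcript of the gene). Ccnd3 made up 65.1%, 73.0% and 70.1% of the summed D-type level in the controls and 77.2%, 80.3% and 81.3% in severe asthma. Ccnd1 made up 24.2%, 10.9% and 13.01% in the controls and 5.85%, 3.45% and 3.66% in severe asthma. The groups did not overlap for either share. The share of Ccnd2 overlapped between the groups (10.8%, 16.2% and 16.9%, against 16.9%, 16.2% and 15.02%). The summed level itself was 1147, 1099 and 1110 adjusted reads per kilobase in the controls and 1526, 1587 and 1768 in severe asthma.

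**Figure D3:**
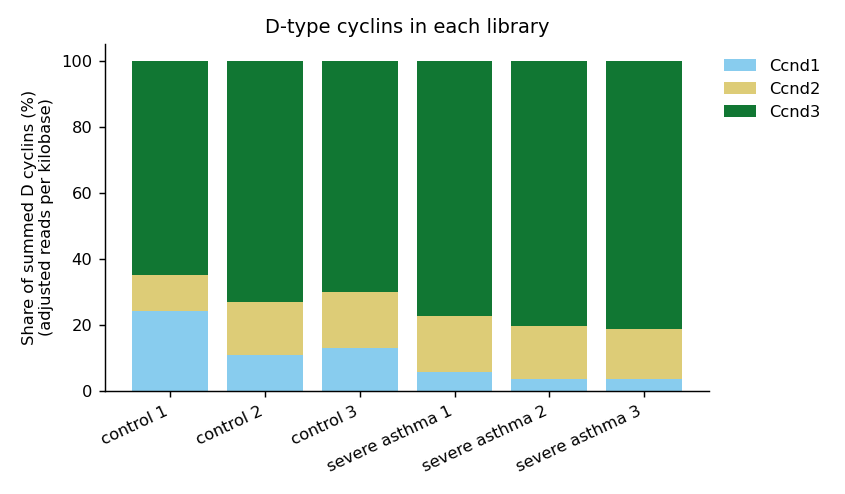
Share of the summed D-type cyclin level, in adjusted reads per kilobase, held by Ccnd1, Ccnd2 and Ccnd3 in each library (stacked bars from 0 to 100%). Ccnd3 holds the most in every library, from 65.1% to 81.3%, and the Ccnd1 share is lower in each severe asthma library than in any control.

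Set in order by level per kilobase, Ccnd3 was the most abundant of the 10 genes in both groups, at 775 ± 27.8 in the controls and 1297 ± 131 adjusted reads per kilobase in severe asthma (SD, n = 3 each), and Cdk2 came next at 381 ± 73.4 and 441 ± 21.2. In the controls Ccnd1 (180.4 ± 84.9) and Ccnd2 (163 ± 34.5) followed and overlapped. Behind them came Ccne1 (39.3), Ccna2 (28.2), Ccnb2 (25.8), Ccnb1 (15.2) and Ccne2 (14.7), and neighbours among these overlapped. Cdk1 was the lowest at 7.93 ± 4.13 and did not overlap with Ccne2. In severe asthma Ccnb2 (289 ± 22.3), Ccnd2 (260.4 ± 4.59) and Ccna2 (257 ± 33.1) stood next after Cdk2. They overlapped among themselves but not with Cdk2 or Ccnb1. Ccnb1 followed at 139 ± 12.3, then Ccne1 (80.2), Ccnd1 (69.6) and Cdk1 (67.2), where Ccnd1 overlapped with both others. Ccne2 was the lowest at 34.7 ± 4.83. Ccnb2 thus stood above Ccnd1 in the severe asthma libraries and below it in the controls.

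Ratios between 2 members of the same library, taken on the log2(value + 1) scale, depend little on library scaling. The log2 ratio of Cdk1 to Cdk2 was -4.85, -5.45 and -4.03 in the controls and -1.83, -1.98 and -1.74 in severe asthma, a difference of 2.93 (two-sided exact permutation test, p = 0.1, the smallest that 3 against 3 libraries allows). The log2 ratio of Ccnd1 to Ccnd3 was lower in severe asthma by a difference of -2.04 (exact permutation p = 0.1, again the smallest possible). The other 3 ratios moved less: Ccnb1 to Ccnb2 differed by -0.245 (exact permutation p = 0.3), Ccne1 to Ccne2 by -0.185 (exact permutation p = 0.2) and Ccnd2 to Ccnd3 by -0.04 (exact permutation p = 0.9). These 5 ratios were tested as 1 family in a design that cannot reach 0.05.

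**Figure D4:**
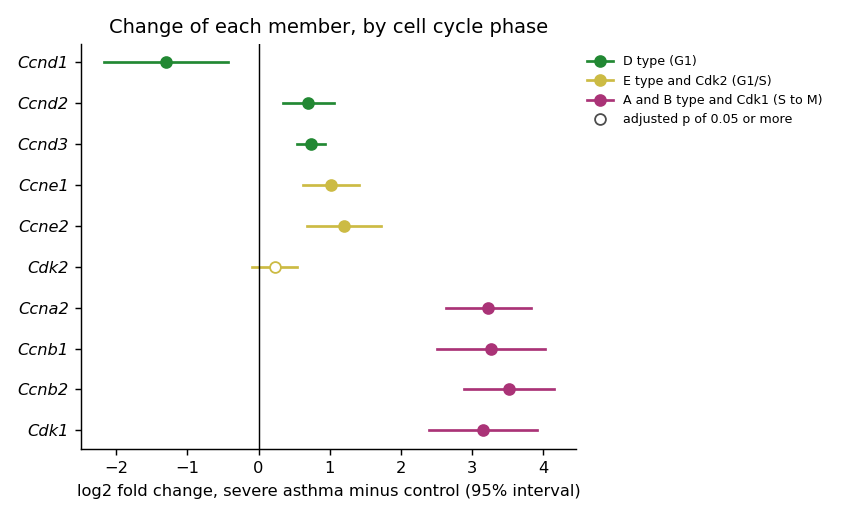
Log2 fold change of each gene, severe asthma minus control, with its 95% interval from limma, coloured by phase; the open circle is the gene whose adjusted p was 0.05 or more. The intervals of Ccna2, Ccnb1, Ccnb2 and Cdk1 start at 2.39 or above, those of the E-type cyclins and of Ccnd2 and Ccnd3 lie between 0.34 and 1.72, that of Cdk2 includes 0 and that of Ccnd1 lies below 0.

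The genes outside these lists whose log2 values followed those of Cdk1 most closely over the 6 libraries were Haspin (Pearson r 0.9988), the kinase that marks histone H3 at centromeres in mitosis, Pdha1 (0.9986), a subunit of pyruvate dehydrogenase, Pag1 (0.9976), Kif15 (0.9975), a spindle motor, and Ckap2l (0.9974). Those closest to Ccnd1 were Arhgef10 (0.9992), Fndc1 (0.9988), Dact3 (0.9981), Epn2 (0.9977) and Mtss2 (0.9977), and all 5 fell. Those closest to Ccnd2 were Mrps7 (0.9985), Hsdl1 (0.9983), Zfyve19 (0.9983), Rae1 (0.9982) and Cux1 (0.998). With 6 libraries in 2 groups, these coefficients rest mostly on the difference between the groups. Ccnd1 correlated negatively with each of the 9 other members, from -0.82 with Ccna2 to -0.95 with Ccnd2.

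Around the members, the genes that run mitosis rose almost as a block: 22 of 24 rose and 0 fell, with a median log2 fold change of 2.73, beside a median of 0.06 and a share of 20.7% risen over all genes. Cenpe, the kinetochore motor, had 63.9, 64.0 and 98.7 adjusted reads in the controls and 734, 626 and 889 in severe asthma, a log2 fold change of 3.31 (SE 0.208, limma adjusted p = 0.000223). Kif20a, a kinesin of the central spindle, rose by 2.39 on the log2 scale and Incenp, a scaffold of Aurora B, by 1.33. The genes not called were Anln (0.86, adjusted p = 0.0658) and Pttg1, the securin that guards separase (-0.37, adjusted p = 0.0546). Both were named after their values were seen. The S phase and licensing genes also moved up, with 21 of 22 risen and a median of 1.28. Mcm6, Mcm3 and Mcm5, subunits of the replicative helicase, rose by 1.10, 1.30 and 1.27, and Mcm6 had 1015, 1035 and 1042 adjusted reads in the controls and 2200.2, 2106 and 2322 in severe asthma. The remaining gene, the licensing factor Cdt1, fell by 0.31 on the log2 scale (2605, 2721 and 2405 adjusted reads, against 2215, 1922 and 2112, limma adjusted p = 0.0223). The call of Cdt1 was lost without control 2 (adjusted p = 0.0518), severe asthma library 2 (0.0893) or library 3 (0.073).

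**Figure D5:**
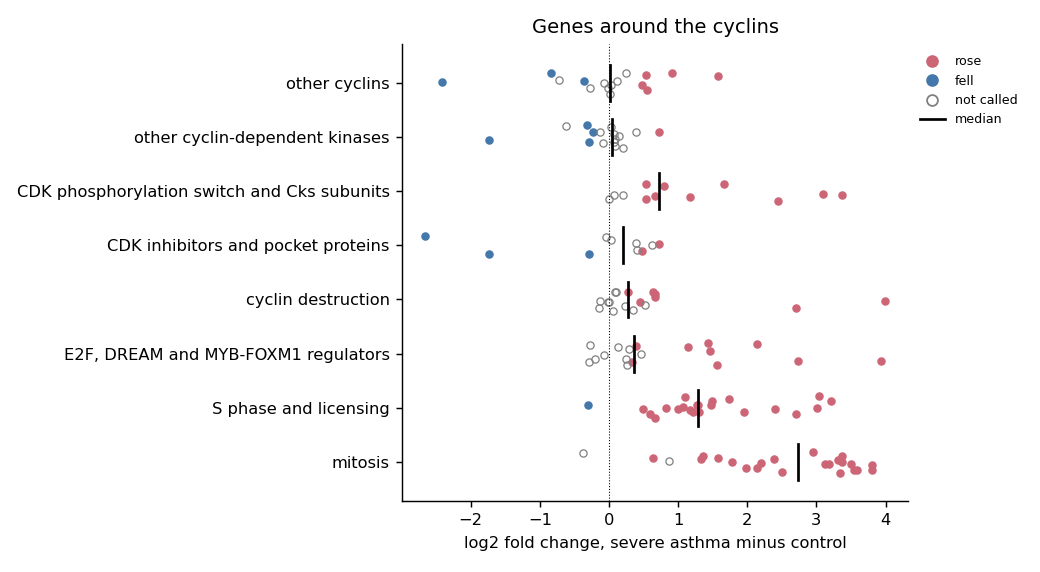
Log2 fold change, severe asthma minus control, of every tested gene in the 8 lists around the cyclins; each dot is a gene (red rose, blue fell, open not called) and the black bar is the list's median. The mitosis and S phase lists lie almost wholly to the right of 0, with medians of 2.73 and 1.28, while the other cyclins and other kinases are centred near 0.

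Genes for the proteins that switch Cdk1 and bind beside it were mostly higher as well. Of 12 genes of the phosphorylation switch and the Cks subunits, 9 rose and 0 fell, with a median log2 fold change of 0.72, beside 20.7% risen over all genes. Plk1, the mitotic kinase that helps switch Cdk1 on, had 38.3, 34.0 and 52.6 adjusted reads in the controls and 413, 382 and 513 in severe asthma (log2 fold change 3.37, SE 0.215, limma adjusted p = 0.000223). The small Cdk-binding subunits Cks1b and Cks2 rose by 2.44 and 1.67. Cdc25c, a phosphatase that activates Cdk1, and Wee1, a kinase that restrains it, both rose (3.10 and 1.17, named after their values were seen), while the phosphatase Cdc25b did not pass, at 0.00 (SE 0.149, adjusted p = 0.993).

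Of 17 genes listed for cyclin destruction and its control, 7 rose and 0 fell, with a median of 0.28, beside 20.7% risen over all genes. The mitotic ones stood out in size: Ube2c, the ubiquitin carrier of the anaphase-promoting complex, had 20.6, 13 and 44.5 adjusted reads in the controls and 397, 358 and 390 in severe asthma (log2 fold change 3.995, limma adjusted p = 0.000936), and Cdc20, the activator of that complex, rose by 2.70. Ube2s, which extends the ubiquitin chains, rose by 0.67. Without severe asthma library 3, 4 of the 17 passed.

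Among the 18 E2F, DREAM and MYB-FOXM1 regulators, 9 rose and 0 fell, with a median of 0.36, beside 20.7% risen over all genes. E2f8, a repressor of the E2F family, had 10.8, 12.0 and 28.8 adjusted reads in the controls and 250, 231 and 277 in severe asthma (log2 fold change 3.93, SE 0.371, limma adjusted p = 0.000668). Mybl2, the B-MYB factor of mitotic genes, rose by 2.73 and Tfdp1, the dimer partner of E2F proteins, by 1.56. Like the mitotic cyclins, E2f8 was highest among the controls in control 3.

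Of the 10 CDK inhibitors and pocket proteins, 2 rose and 3 fell, with a median of 0.21, where 20.7% of all genes tested rose and 14.4% fell. The INK4 inhibitors Cdkn2c (p18) and Cdkn2d (p19), which bind Cdk4 and Cdk6, rose by 0.72 and 0.48. Cdkn2c had 146, 126 and 153 adjusted reads in the controls and 215, 245 and 239 in severe asthma. Cdkn1b (p27), an inhibitor known for holding lymphocytes at rest, had 3219, 3815 and 3736 adjusted reads in the controls and 3157, 2938 and 2738 in severe asthma (log2 fold change -0.28, limma adjusted p = 0.0425). Its call was lost when any library but control 1 was left out, at adjusted p = 0.0994 without control 2, 0.125 without control 3, and 0.0507, 0.124 and 0.156 without severe asthma libraries 1, 2 and 3. The p57 inhibitor Cdkn1c (223, 87.0 and 97.3 adjusted reads, against 53.2, 29.9 and 30.7) fell by 1.73 on the log2 scale and the INK4 inhibitor Cdkn2b (133, 20.0 and 27.3, against 11.4, 2.23 and 6.94) fell by 2.66. Like Ccnd1 and the stromal markers, both were highest in library 1 of each group. Cdkn1c lost its call without severe asthma library 2 (adjusted p = 0.0726) or 3 (0.0678), and Cdkn2b without control 3 (0.0628), severe asthma library 2 (0.131) or 3 (0.103). Cdkn2d lost its call without severe asthma library 2 (0.0564).

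The other cyclins and kinases, most of which serve transcription or other tasks, had list medians near that of all genes, at 0.02 and 0.05. Of 16 other cyclins tested, 5 rose and 3 fell, against 20.7% and 14.4% of all genes tested, and the germline cyclins Ccna1 and Ccnb3 were below the filter. Ccni had 3922, 4736 and 4189 adjusted reads in the controls and 8122, 7985 and 7971 in severe asthma (log2 fold change 0.91, SE 0.0832, limma adjusted p = 0.000581). Ccnf, a cyclin that is the substrate subunit of a ubiquitin ligase, rose by 1.58 and Ccng1 by 0.54. Ccnyl1 and Ccnt1, a subunit of the elongation kinase P-TEFb, fell by 0.83 and 0.37, and the third gene that fell was Ccnjl (-2.42, named after its value was seen). The count of fallen cyclins was 1 without control 3, 1 without severe asthma library 1, 0 without library 2 and 1 without library 3.

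Of 16 other cyclin-dependent kinases, 1 rose and 4 fell, against 20.7% and 14.4% of all genes tested. The gene that rose was Cdk4, the main partner of the D-type cyclins, with 788, 786 and 802 adjusted reads in the controls and 1262, 1296 and 1359 in severe asthma (log2 fold change 0.72, SE 0.0661, limma adjusted p = 0.000598). Its step was close in size to those of Ccnd2 and Ccnd3. Cdk6, the alternative partner, did not pass (0.09, SE 0.0695, adjusted p = 0.355, named after its value was seen). Cdk14 (576, 214 and 231 adjusted reads, against 109, 86.4 and 79.4) fell by 1.74 on the log2 scale, with control 1 again the highest. Cdk16, Cdk19 and Cdk11b fell by 0.30, 0.23 and 0.32. The count of fallen kinases was 2 without control 3, 1 without severe asthma library 1, and 0 without library 2 or library 3.

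Markers of activated B cells, of macrophages and monocytes, and of T and NK cells were also read. Their counts stand beside 20.7% risen and 14.4% fallen over all genes. Of 10 germinal centre markers, 8 rose and 0 fell, with a median log2 fold change of 3.55; Mybl1 had 32.4, 38.0 and 41.5 adjusted reads in the controls and 891, 924 and 1263 in severe asthma, and Bcl6 rose by 0.30. Of 10 plasma cell genes, 5 rose, 0 fell and 5 were not called, with a median log2 fold change of 0.95. Jchain, the gene of that list with the largest change, had 100.2, 66.0 and 234 adjusted reads in the controls and 9309, 7062 and 5047 in severe asthma. Irf4, a transcription factor of plasma cells that other B cells also express, overlapped between the groups, with 5334, 5892 and 4122 adjusted reads in the controls and 6848, 3911 and 3629 in severe asthma, and did not pass (-0.14, adjusted p = 0.736). Of 14 macrophage and monocyte markers, 9 rose and 0 fell, and Lyz2 had 15671, 5659 and 14285 adjusted reads in the controls and 49853, 92260 and 61799 in severe asthma. None of 9 T and NK cell markers was called, and their summed level ran from 635 to 984 adjusted reads in the controls and from 722 to 850.2 in severe asthma. Ptprc, which encodes the CD45 phosphatase whose B cell form carries the B220 antigen, did not pass the test (0.21, adjusted p = 0.234).

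The authors' deposited table of called genes, limited to q-values below 0.05 and to changes of 1 or more on the log2 scale in either direction, holds 6 of the 10 members. The authors' deposited table gives log2 fold changes of 3.14 for Ccna2 (q = 2.57e-22), 3.14 for Ccnb1 (q = 1.09e-15), 3.43 for Ccnb2 (q = 1.05e-22), 3.03 for Cdk1 (q = 1.72e-14), 1.14 for Ccne2 (q = 0.00397) and -1.43 for Ccnd1 (q = 0.000392). Ccne1 is not in that table, although the authors' deposited table of transcripts gives its transcript a log2 fold change of 1.03 (q = 0.0105). The same 6 stand among the 30 genes that the authors' deposited table of pathway terms counts under "Cell cycle", out of 125 genes in that term (q = 0.00282).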

How the data were processed

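Poly(A) RNA was selected and 6 NEBNext Ultra libraries were sequenced, per the labels' protocols. Strandedness is not given in the sources used here. Tools listed in the submitters' processing notes are HISAT2 2.1.0, HTSeq 0.11.2 and bcl2fastq, with build mm10. The deposited table of 84748 mRNA transcripts gives, for each library, a signal adjusted for library size. All 440735 values above 1e-09 (smaller ones stand for 0 reads) could be rebuilt, within 0.001, from whole reads (100% within 0.05) by edgeR's quantile adjustment with a dispersion of 0.0474; no source used here names the tool the authors used. The log2 fold changes and q-values quoted as the authors' come from their deposited tables, and their test is not named.

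Per gene the transcript of the highest mean was kept (21774 genes), since deposited transcripts of a gene share reads. Because the values are adjusted and not raw counts, the design's branch for normalized values was used: limma-trend 3.58.1 in R 4.3.3 (robust moderation) on log2(value + 1). The test was two-sided, covered the 15759 genes whose mean reached 1, and was adjusted over all of these by Benjamini-Hochberg, with 0.05 as threshold. Fold changes on this scale understate those of low genes. The fit was also run on simulated data, and the outcome is not reported here. In that run the changed genes all rose and every gene had the same dispersion, unlike these data. It therefore cannot check the calls made here. Alternatives were other pseudocounts, filters and scalings, edgeR 4.0.16, DESeq2 1.42.0 and limma-voom on the recovered reads, all transcripts tested, a replicate block, and each library left out. Residuals of same-numbered libraries correlated at 0.587, 0.236 and 0.269 across genes, so by the rule that every pair must exceed 0.1 the numbers of the labels were treated as pairs in the block, although control 3 with severe asthma 2 (0.338) and control 2 with severe asthma 3 (0.306) correlated as well; nothing in the labels says what a number shares.

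The genes and all gene lists were chosen with earlier results of these data known, so counts over a list describe it and support nothing by themselves. Named from each list were the 3 genes of smallest p and, where some passed in the other direction, the 2 of smallest p among those; from each marker list, the 2 of highest mean (not all are reported here); and the 5 genes with a mean of at least 50 that correlated best with Cdk1, Ccnd1 and Ccnd2. Ccnf, Ccnh and Cdk7 each stand in 2 lists. Ighm, Ighd, Trac, Trbc1 and Trbc2 are not analysed here. Gene coordinates are RefSeq's for GRCm38.p6.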

Additional observations from a re-analysis of the deposited data

How the results depend on the processing

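Under 17 alternatives, 7 of the 10 members kept their direction and their side of the threshold, Ccnd1 and Ccnd2 lost their call under some, Cdk2 gained one under 1, and 0 reversed. Ccna2 ranged from 3.00 to 3.51, Ccnb1 from 3.06 to 3.67, Ccnb2 from 3.31 to 3.83, Cdk1 from 2.95 to 3.54, Ccnd1 from -1.55 to -0.94 and Ccnd2 from 0.51 to 0.81 on the log2 scale. Members risen numbered 7 to 8 under the settings that kept all libraries and 7 to 9 with a library left out. Members fallen numbered 0 with no filter on low values, 0 with limma-voom, and 0 to 1 with a library left out. Without severe asthma library 2 the whole table gave 1575 higher and 728 lower, without library 3 it gave 1627 and 782, and with no filter it gave 1312 and 387. Of 31 named genes of the lists, 20 kept their call under every alternative and 11 lost it under some; the cause was not tested.

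With the replicate block, the whole table gave 3528 genes higher and 2714 lower and no member's call changed; the E2F, DREAM and MYB-FOXM1 list gained 1 fallen gene under this pairing, and no other list's count moved by over 1.5 times.

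Over the 8 lists together, genes risen numbered 74, and 62 to 76 under all alternatives. Genes fallen numbered 11, but 1 with no filter, 20 with total reads and 0 to 13 with a library left out. Other cyclins: 3 risen with no filter; 0 fallen with no filter, 5 with total reads and 0 to 4 with a library left out. Other kinases: 1 fallen with no filter and 0 to 4 with a library left out. Inhibitors and pocket proteins: 1 risen with no filter and 1 to 3 with a library left out; 0 fallen with no filter, 1 with limma-voom and 0 to 3 with a library left out. Cyclin destruction: 4 risen with no filter and 4 to 7 with a library left out; 1 fallen with total reads, 1 with edgeR's RLE factors and 0 to 1 with a library left out. E2F, DREAM and MYB-FOXM1: 2 fallen with total reads, 1 with RLE factors and 1 with DESeq2. S phase: 0 fallen with no filter and 0 to 1 with a library left out. Mitosis: 1 fallen with total reads, 1 with edgeR's TMM factors, 1 with RLE factors, 1 with DESeq2 and 0 to 1 with a library left out. The log2 ratio of Ccnd2 to Ccnd3, -0.04 with all libraries, ran from -0.20 to 0.0717 with a library left out, above 0 without control 2, control 3 or severe asthma library 3. With 3 libraries a group, the step of Cdk2 did not pass the test with all 6 libraries.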
